A study of Saccharomyces cerevisiae with 20 samples.

Results

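Yeast strains that lack a stretch of the N-terminal tail of histone H4 were followed by their DNA barcodes in 1 ageing culture of a pooled histone mutant library. The members are the strains that the barcode table names as a deletion of H4 residues, and they were chosen by name and not by any measured value. The table listed 20 such strains among 422, and 15 of them, among 347 strains of the series, averaged 10 or more counts a library and were compared. The strains derive from JDY86, in which one of the 2 gene pairs for H3 and H4 is removed (hht1-hhf1::NatMX4) and the other (hht2-hhf2) carries the synthetic histone, so every strain, the wild type included, has a single copy of each. Each deletion is 1 strain with 1 pair of barcodes. The pool was grown in rich medium, diluted and kept shaking, and aliquots of days 0, 1, 2, 3, 5, 7, 14, 24, 34 and 44 were parted on a Percoll density gradient into quiescent and non-quiescent cells. This gave 20 libraries, with 1 library for each fraction and day and no replicates. A change from day 0 to the first days takes in growth after the dilution as well as survival, and these cannot be told apart.

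The H4 tail is the flexible, basic stretch that reaches out of the nucleosome. Its lysines K5, K8, K12 and K16 are acetylated, and K16 sits at the edge of a basic patch, residues 16 to 20, that is bound by the silencing protein Sir3 and also touches the acidic patch of a neighbouring nucleosome. Removal of acetylation from K16 by Sir2 allows Sir3 to spread along silent chromatin, and R3 near the tip is methylated in mammals. In yeast, quiescent cells are the dense, long-lived cells of a stationary culture, and the non-quiescent cells are less dense and lose viability sooner.

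The 15 kept deletions cover the tail in steps of 4, 8 or 12 residues. The deletions 1-4, 1-12, 5-8, 5-12, 9-12 and 21-24 leave residues 16 to 20 in place. The deletions 9-16 and 13-16 take K16 alone of that patch. The deletions 15-18, 17-20, 17-24 and 20-23 take some of it, and 9-20, 13-20 and 13-24 take all of it. Of the 5 that were not kept, 4 were at 0 in all 20 libraries. These were 1-16, 1-20, 1-24 and 9-24, the deletions of 16 residues or more, and 3 of them remove the whole patch. A count of 0 allows a share of up to 0.889 to 2.37 per 100000 counts, depending on the library (3 counts of its total, counting error only). In the series as a whole 68 of 422 strains were at 0 throughout. The fifth, 1-8, held 41 counts in the quiescent and 19 in the non-quiescent library of day 0 and 0 in the other 18 libraries. Of the 6 listed deletions that start at residue 1, 4 were not kept.

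The values of each deletion rest on an up and a down barcode of 20 bases. The barcodes of the deletions on which the comparisons below turn are therefore shown. Capitals mark the bases that differ, position by position, from the closest other barcode of the same kind in the table.
H4[del 1-4], up: aTatgCTgaAcaccgAgGcc
H4[del 1-4], down: CACacAGtataaGActtgCc
H4[del 1-12], up: ATatTACtgcgaaggCGgCc
H4[del 1-12], down: TgGgAagACccTCgAAAtcc
H4[del 5-12], up: TcagCgGTgAcatGcTaTtg
H4[del 5-12], down: agcacacGTAGgaaCtATcc
H4[del 9-16], up: CATAggCtgaaagcTcAtca
H4[del 9-16], down: CcAcagtAAcTatAtGgtCC
H4[del 9-20], up: CgCgcTAagacaaTTCaTca
H4[del 9-20], down: GagTACCcaTaactTggtCc
H4[del 17-20], up: ctCGgatAgTgCatgAtAtG
H4[del 17-20], down: CAAtGGtcGGtaatcacGCg
No barcode of any of the 20 deletions was closer than 6 mismatches to another barcode of its kind. That smallest distance belonged to the up barcode of 1-4, and its down barcode was 8 mismatches from the closest.

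The libraries held 126647 to 337544 counts, and the kept H4 deletions took 2.95% to 8.08% of them. Down barcodes supplied 12.4% of the quiescent library of day 24 and 32.1% to 49.4% of the other libraries. The day 5 libraries stood apart. Over the kept strains, with each strain centred on its mean, the quiescent library of day 5 correlated with the non-quiescent one of day 3 at r = 0.77 and with the quiescent one of day 3 at 0.15, and the non-quiescent library of day 5 correlated with the quiescent one of day 3 at 0.82 and with the non-quiescent one of day 3 at -0.03. The quiescent library of day 3 itself correlated with the non-quiescent one of day 14 at 0.52 and with the quiescent one of day 14 at -0.61, and the non-quiescent library of day 5 did so at 0.58 and -0.56. In the same order, the quiescent library of day 5 stood at 0.11 and -0.56, and the non-quiescent library of day 3 at 0.07 and -0.43. These are correlations across strains, which share libraries and depth, and they carry no test. Whether the fractions were exchanged on day 5, or on days 2 and 3, was not tested, so the values of these days, and the fraction and interaction results that use them, hold as labelled. Calls that change without day 5 are given below.

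The deletions did not move as one group. On the ratio of day 44 to day 0 in the quiescent fraction (log2, less the median of the 347 kept strains), they ran from -6.95 to 2.13 with a median of 0.12, against a range of -8.65 to 2.68 over all kept strains. Of the 15, 9 were above the median strain and 6 were above the wild type, which stood at 0.41 (95% counting interval 0.29 to 0.54). Over all kept strains 114 of 347 were above the wild type. The ratio varied with the position of the deletion along the tail. Of the 7 deletions that end at residue 16 or before, 6 were above the wild type, with a median of 1.19, and the exception was 1-4. Of the 7 that remove any of residues 17 to 20, none was above the wild type, and their median was -1.21. This contrast holds against day 0. On the ratio of day 44 to day 1, on which the wild type stood at 0.27, 6 of the first 7 deletions and 5 of the second 7 were above the wild type, with medians of 1.95 and 0.73, as were 136 of all 347 strains. The last deletion, 21-24, stood at -0.08 against day 0. On that ratio the kept single substitutions of the H4 tail varied with position too. At residues 5 to 16, 18 of 20 were above the wild type, with a median of 0.87. At residues 17 to 20, 4 of 9 were, with a median of 0.33. At residues 1 to 4 and 21 to 24 these were 2 of 6 and 3 of 6. By length, the medians were 0.00 for the 8 deletions of 4 residues, 0.66 for the 4 of 8 residues and 0.12 for the 3 of 12 residues. These are descriptions of strains and carry no test.

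Slopes on log2(day + 1) over the 10 quiescent libraries were tested with edgeR's quasi-likelihood test across all kept strains. At an adjusted p of 0.05, 6 of the 15 deletions rose and 2 fell. The background of such calls was high, with 21.6% of the 347 strains rising and 27.1% falling, so that 6 of 15 rising is above and 2 of 15 falling below that share. The strains that rose were 1-12, 5-8, 5-12, 9-12, 9-16 and 13-16, which are all the kept deletions within residues 1 to 16 other than 1-4. The strains that fell were 1-4 and 15-18. Scaling by library totals instead of TMM moved the median strain by -0.28 over the course, and scaling on the wild type moved it by -0.38, yet the same 8 deletions were called under both. Leaving out day 0 ended the call of 15-18 and added rises of 9-20 and 20-23, and leaving out day 34 ended that of 1-12. Without day 0 the slopes of 1-12, 5-12 and 9-12 were 0.72, 0.65 and 0.65 per unit of log2(day + 1), over 1.5 times those given below.

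H4[del 1-4], which lacks the tip of the tail with R3, was among the most abundant strains at the start and one of the scarcest in the last quiescent libraries. Its shares of the quiescent libraries, per 100000 counts, were 831, 64.8, 123, 159, 134, 104, 48.2, 12.6, 8.59 and 5.94 from day 0 to day 44, the last 3 on 16, 29 and 10 counts. The share was low from day 1, between 64.8 and 159 up to day 7 and lower still from day 14 on. The day 44 ratio was -6.95 (counting interval -8.01 to -6.06), -6.81 by the up barcode and -7.17 by the down barcode, and only 6 of the 347 kept strains were lower. The slope over the course was -1.09 ± 0.15 (SE) on the log2 scale per unit of log2(day + 1) (adjusted p = 0.000567). Between days 7 and 44 the strain fell by 1.09 ± 0.15 per 10 days (adjusted p = 0.00277). The non-quiescent shares were 842, 132, 30.1, 43.6, 134, 93.0, 93.6, 83.1, 78.3 and 85.4. After day 7 they stayed between 78.3 and 93.6, above every quiescent share of those days.

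H4[del 1-12] lacks the same 4 residues and the next 8, with K5, K8 and K12. Its quiescent shares were 216, 93.1, 67.8, 112, 88.7, 193, 189.9, 388, 491 and 429.5 per 100000. The shares of days 1 to 5 were below the start, and those of the last 3 days were above all others. Its day 44 ratio was 1.18 (0.99 to 1.36), 8.12 above that of 1-4 on the log2 scale. By the up barcode it was 1.46 and by the down barcode 0.80, both outside that counting interval. The course slope was 0.39 ± 0.11 (adjusted p = 0.0141), and after day 7 the strain rose by 0.51 ± 0.11 per 10 days (adjusted p = 0.00986). In the non-quiescent fraction it went from 148 to between 48.0 and 95.7 on all later days, so that the last 3 quiescent libraries lie above every non-quiescent one.

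H4[del 5-12], which removes K5, K8 and K12 and keeps the tip, followed a like path at a higher level. Its quiescent shares were 579, 258, 246, 333, 308, 698, 573, 1055, 1216 and 1151 per 100000, and its day 44 ratio was 1.17 (1.06 to 1.28). The difference in slope between 1-12 and 5-12 was 0.03 on the log2 scale per unit of log2(day + 1) (permutation adjusted p = 0.568). H4[del 5-8], which removes K5 and K8, stood above its day 0 level on all later days. Its quiescent shares were 229, 325, 274, 282, 397, 392, 461, 618, 533 and 459. Its day 44 ratio was 1.19 (1.01 to 1.36), 1.02 by the up and 1.62 by the down barcode. Its course slope of 0.28 ± 0.05 passed (adjusted p = 0.00114), and its slope after day 7, 0.18 ± 0.09 per 10 days, did not (adjusted p = 0.134), though it did without day 44 (0.33 ± 0.09, adjusted p = 0.0101) and without day 24 (adjusted p = 0.0433). The course slope of 5-12 was 0.37 ± 0.10 (adjusted p = 0.0107).

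H4[del 9-12], which removes K12 alone of the acetylated lysines, had quiescent shares of 207, 152, 130.4, 137, 47.9, 193, 275, 552, 526 and 520.4 per 100000. The lowest of these, on day 5, lies near the 44.2 of the non-quiescent library of day 3, whereas the non-quiescent library of day 5 held 127. Its day 44 ratio was 1.51 (1.34 to 1.69) and its course slope 0.42 ± 0.11 (adjusted p = 0.0108).

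H4[del 9-16], which removes K12 and K16, was the most abundant deletion in every quiescent library from day 1 on and took 2.81% of the last quiescent library. Its quiescent shares were 726, 985, 842, 1033, 1631, 914, 1329.5, 2413, 3149 and 2809.6 per 100000. The last 3 days are above all earlier ones, and the day 5 value stands above both its neighbours, close to the 1651 of the non-quiescent library of day 3. The day 44 ratio was 2.13 (2.05 to 2.22), 2.16 by the up and 2.15 by the down barcode, with 7 of the 347 strains higher. The course slope was 0.43 ± 0.08 (adjusted p = 0.0015). Its non-quiescent shares were 509, 1150.2, 1273, 1651, 946, 967, 921, 869, 1041 and 1071, the highest of them at day 3. On day 5 not all deletions lay near the non-quiescent library of day 3. The quiescent share of 1-4 on day 5 was 134, against 159 in the quiescent and 43.6 in the non-quiescent library of day 3. For 21-24 these shares were 714, 733 and 491.

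H4[del 13-16], which removes K16 with the residues before it, was scarce, with quiescent shares of 62.4, 72.0, 78.9, 76.1, 71.1, 86.6, 97.0, 141, 124 and 127 per 100000. Its day 44 ratio was 1.20 (0.87 to 1.55). The barcodes differed more here than in any other deletion, at 0.88 by the up and 2.28 by the down barcode, though both lie above the median strain. At day 0 the quiescent library held 93 up and 18 down counts of this deletion, and 2.28 lies outside the counting interval. The course slope of 13-16 was 0.26 ± 0.05 (adjusted p = 0.00136). In 12 of the 15 deletions both barcodes gave a ratio with the same sign, and the median difference between barcodes was 0.36. The signs differed in 9-20 (0.37 by the up and -0.35 by the down barcode), 13-20 (0.34 and -0.04) and 21-24 (0.10 and -0.13).

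The deletions that reach into residues 17 to 20, with R17, H18, R19 and K20, showed another picture. H4[del 15-18] was the most abundant of all 347 strains at day 0, with a share at day 1 about as low as at day 44. Its quiescent shares were 1721, 154, 279, 379, 351, 315, 225, 196, 185 and 191 per 100000, and its non-quiescent share went from 2228 to between 162 and 339. Its day 44 ratio of -2.99 (-3.16 to -2.83) had its counterpart at day 1, where the ratio to day 0 was -3.71. The course slope was -0.42 ± 0.12 (adjusted p = 0.0134). After day 7 its slope was -0.07 ± 0.06 per 10 days (adjusted p = 0.387), and without day 0 the course slope did not pass.

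H4[del 17-24] had quiescent shares of 295, 75.0, 84.1, 163, 133, 758, 259.7, 80.5, 59.3 and 69.5 per 100000. A single library, day 7, stood far above the rest, and the non-quiescent library of that day held 200.2. From day 7 the strain fell by 0.87 ± 0.16 per 10 days (adjusted p = 0.00554), and without day 7 by 0.53 ± 0.14 (adjusted p = 0.0428), while over the whole course its slope was -0.18 ± 0.24 (adjusted p = 0.565). Its day 44 ratio was -1.90 (-2.20 to -1.61).

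H4[del 17-20] removes 4 residues of the patch and stood at -1.21 (-1.48 to -0.95) at day 44, with shares of 254 at day 0 and 61.7 to 165 later. Its course slope of -0.13 ± 0.08 did not pass (adjusted p = 0.220). Nor did its slope after day 7, -0.02 ± 0.08 per 10 days (adjusted p = 0.890). The 3 deletions that remove all of residues 16 to 20 did not pass in either direction. H4[del 9-20] had quiescent shares of 148, 109, 51.5, 70.5, 53.4, 154, 75.4, 121, 108 and 142 per 100000 and a day 44 ratio of 0.12 (-0.13 to 0.38). H4[del 13-20] stood at 0.15 (-0.44 to 0.74) on 53 and 49 counts, the thinnest of the kept deletions with 635 counts over all libraries. H4[del 13-24] stood at -1.49 (-1.92 to -1.08), with 119.7 per 100000 at day 0 and 16.5 to 45.8 afterwards. H4[del 20-23], which takes K20 alone of the patch, stood at 0.08 (-0.06 to 0.22), with its highest share at day 7, 796 per 100000. H4[del 21-24], which lies beyond the patch, went from 840.4 at day 0 to 292 at day 1 and 701 at day 44, and stood at -0.08 (-0.19 to 0.03).

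At day 1 most deletions were low. On the ratio of day 1 to day 0 in the quiescent fraction, 13 of the 15 deletions were below the median strain, and the deletions ran from -3.90 to 0.29 with a median of -1.39. The 31 kept H3 tail deletions ran from -6.81 to 0.58, with a median of -0.83 and 26 below the median strain. The 41 kept single substitutions at H4 residues 1 to 24 had a median of 0.27 with 7 below. The only H4 deletions above 0 at day 1 were 5-8 (0.29) and 9-16 (0.22), and 13-16 and 13-20 lay next, at -0.01 and -0.05.

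The later days were tested on their own. From day 7 to day 44, 6 of 15 deletions rose and 2 fell by the slope on day, against a background of 17.9% rising and 22.8% falling over the 347 strains. The 6 were 1-12, 5-12, 9-12, 9-16, 13-16 and 21-24, and the 2 were 1-4 and 17-24. The largest rise was 0.60 ± 0.19 per 10 days in 9-16 (adjusted p = 0.0352). Beside that of 1-12, the others were 0.51 ± 0.12 in 9-12 (adjusted p = 0.0133), 0.38 ± 0.12 in 5-12 (adjusted p = 0.032), 0.26 ± 0.09 in 13-16 (adjusted p = 0.0444) and 0.23 ± 0.08 in 21-24 (adjusted p = 0.0482). The calls of the rises, more than their size, changed when single libraries were left out. Without day 7 none of the 6 passed while both falls did, and calls over all strains went from 141 to 32. The slopes without day 7 were 0.50 in 1-12, 0.44 in 5-12, 0.37 in 9-12, 0.48 in 9-16, 0.21 in 13-16 and 0.32 in 21-24 per 10 days, each within 1.5 times the value with it. Without day 14, and likewise without day 34, only 1-12 and 9-12 of the 6 rises still passed. Those of 5-12, 9-16, 13-16 and 21-24 did not. Leaving out day 24 ended the call of 9-16, and leaving out day 44 that of 21-24. With the wild type as the reference, whose own slope was 0.10 ± 0.07, 3 rises (1-12, 9-12 and 9-16) and both falls passed, which ends the calls of 5-12, 13-16 and 21-24.

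In the non-quiescent fraction none of the 15 deletions passed by edgeR over the course, where 6.63% of the 347 strains did in either direction, and 4 of the 15 had an unadjusted p under 0.05. DESeq2 called 1 deletion there, 21-24. From day 7 to day 44 none passed either, nor did any of the 347 strains (0%), with 3 of the 15 and 37 of the 347 at an unadjusted p under 0.05, and DESeq2 called none. The median day 44 ratio of the deletions was -1.44 there, and 3 of 15 were above the median strain, namely 9-16 (0.86), 5-8 (0.59) and 13-16 (0.57). The lowest were 1-4 (-3.51) and 15-18 (-3.24).

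Whether the trends of the fractions differed was tested by the interaction of fraction with log2(day + 1). It passed for 7 deletions, 6 of them moving toward the quiescent fraction, against a background of 15.3%, and 1 away from it, against 17.6%. Toward it moved 5-12 (0.52 ± 0.08, adjusted p = 0.00324), 1-12 (0.51 ± 0.10, adjusted p = 0.00599), 9-16 (0.43 ± 0.12, adjusted p = 0.0253), 21-24 (0.27 ± 0.08, adjusted p = 0.0264), 13-16 (0.22 ± 0.07, adjusted p = 0.0376) and 5-8 (0.21 ± 0.06, adjusted p = 0.0253), all as a difference of log2 slopes. Away from it moved 1-4 (-0.67 ± 0.23, adjusted p = 0.0407). Without day 5, 9-12 and 20-23 joined them, for 9 in all. Without any one of days 24, 34 and 44 the calls fell to 1-12 and 5-12, and without day 2 to 4 deletions, 1-4 not among them. Under library totals 5-8, 13-16 and 21-24 did not pass, and by the down barcode alone 1-4 and 21-24 did not. Over days 7 to 44 alone, a choice made after seeing the data, 5 deletions moved toward the quiescent fraction (1-12, 9-12, 9-16, 13-20 and 21-24), against a background of 11%, and 2 away (1-4 and 17-24), against 14.4%.

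As a level, the quiescent over non-quiescent ratio at day 44, less its median over strains, was highest for 1-12 at 2.53, with 2 of the 347 strains higher. It was 2.17 in 9-12, 2.15 in 5-12, 1.77 in 13-20, 1.68 in 9-16 and 1.27 in 9-20, against 0.16 in the wild type. It was -3.56 in 1-4, with 6 strains lower, and -1.08 in 17-24. Of the 15 deletions 12 were above the median strain. For 1-12 the ratio went from 0.44 at day 0 through 0.17 at day 3 and 1.43 at day 7 to 2.86 at day 34. For 1-4 it was 1.78 at day 3, 0.15 at day 7 and -2.87 at day 34. Averaged over all 10 days with day as a block, no deletion and no strain passed by edgeR (0%), with 5 of the 15 and 87 of the 347 at an unadjusted p under 0.05. Without day 5 the deletions 1-12, 5-12 and 9-12 passed, as they did by DESeq2. The shares of all strains that passed under these settings are not given here, so these calls have no background. Over days 14 to 44 alone, again chosen after seeing the data, 8 deletions were higher in quiescent cells, against 32.6% of all strains, and 2 were lower, 1-4 and 17-24, against 32.9%. The largest of these differences were 2.32 ± 0.27 in 1-12 (adjusted p = 0.00135) and -2.32 ± 0.42 in 1-4 (adjusted p = 0.00415).

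Deletions that start or end at the same residue were set side by side. Since each deletion is 1 strain, the further residues cannot be told apart from other differences between strains. There were 19 such pairs of kept deletions, and the slope of the log2 ratio of longer over shorter on log2(day + 1) was tested over the 10 quiescent libraries by a two-sided permutation test, adjusted over the 19 pairs. In 2 pairs the difference passed. The slope of 1-12 was 1.50 per unit of log2(day + 1) above that of 1-4 (permutation p = 0.00015, adjusted p = 0.00285). At day 0 the longer deletion was 1.95 below the shorter on the log2 scale, and at day 44 it was 6.18 above it. In the non-quiescent libraries the slopes of this pair differed by 0.26 (permutation adjusted p = 0.389). The slope of 9-20 was 0.21 above that of 17-20 (permutation p = 0.00335, adjusted p = 0.0318), with a log2 ratio of -0.78 at day 0 and 0.55 at day 44. The pair of 17-20 and 9-20 did not pass by the down barcode alone (0.08, permutation adjusted p = 0.481), nor without any one of days 0, 3, 24 and 44.

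The other pairs did not pass, which does not show that they act alike. In the 6 pairs whose longer member adds a residue of 17 to 20, the day 44 ratio of the longer deletion was lower by 1.05 to 2.70 on the log2 scale, but these pairs share strains and are not independent, and none of the 6 slopes passed. The nearest were 13-16 against 13-24 (-0.37, permutation adjusted p = 0.0659) and 9-12 against 9-20 (-0.34, permutation adjusted p = 0.0858). Both passed without day 5 (permutation adjusted p = 0.0447 for each), and the first also without day 2 or day 7, whereas without day 0 the slope of the first was -0.16 (permutation adjusted p = 0.387). The extension of 17-20 backwards to 13-20 had a slope of 0.20 (permutation adjusted p = 0.0659), which passed without day 5 (permutation adjusted p = 0.0447) and without day 1. The extension of 9-16 to 9-20 went with a day 44 ratio 2.01 lower (slope -0.32, permutation adjusted p = 0.126). The slope of 9-16 was 0.17 above that of 13-16 (permutation adjusted p = 0.122, and 0.0447 without day 5). Its difference from the slope of 9-12 was -0.03 (permutation adjusted p = 0.974).

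The single substitutions at the removed residues were set beside each deletion. The 41 kept substitutions at residues 1 to 24 had a median day 44 ratio of 0.66, with a range from -4.71 in H4R3K to 2.68 in H4H18A, and 27 were above the wild type. Among the alanine substitutions of the patch, the ratio was 1.98 in H4K16A, 0.66 in H4R17A, 2.68 in H4H18A, 1.83 in H4R19A and -0.13 in H4K20A. So the single alanines at K16, H18 and R19 were high, whereas the deletion 15-18, which removes K16 and H18, was at -2.99 and 17-20, which removes H18 and R19, was at -1.21. In 5 deletions, 1-4, 13-24, 15-18, 17-20 and 17-24, the deletion was below every kept substitution at its own residues. For 15-18 these were 8 substitutions with a median of 2.15 and a lowest value of -0.68. For 1-4 they were 6 with a median of 0.21, the lowest being H4R3K. In 9-12 the deletion was above all 6 substitutions at its residues, which had a median of 0.88. These contrasts are of ratios to day 0. On the ratio of day 44 to day 1 the wild type stood at 0.27. There 15-18 stood at 0.75, 13-24 at 0.73 and 17-24 at 0.33, while 17-20 stood at -0.32 and 1-4 at -3.01. The alanines at K16, H18 and R19 stood at 3.12, 2.48 and 0.95 on it. At day 1, 14 of the 15 deletions were below the median substitution at their residues, the exception being 9-16.

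H4R3K, the lowest of these substitutions, was at -2.30 at day 1, at -4.71 at day 44 and at -2.53 on the quiescent over non-quiescent ratio of day 44. The 6 kept substitutions at residues 1 to 4, H4R3K among them, had medians of 0.37, 0.21 and -0.40 in the same order. H4K16A, like 1-12, was low at day 1 and high at day 44 in the quiescent fraction, at -1.09 at day 1, 1.98 at day 44, with -0.59 at day 44 in the non-quiescent fraction and 2.68 on the quiescent over non-quiescent ratio, the highest of all 347 strains. The H3 tail deletions had a median day 44 ratio of -1.43 with 9 of 31 above the median strain, and by the course slope 5 of 31 rose and 14 fell.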

How the data were processed

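Barcode counts of 20 libraries of 1 culture of the pooled H3 and H4 mutant library were used, 1 library for each fraction and day, as given by the labels. The authors amplified up and down barcodes separately and sequenced them as single-end Illumina reads. The deposited values are raw counts, which the authors made with their programs get_seqs_from_fastq and match_barcodes_to_strain. No genome build applies. A deposited matrix of the authors' log2 ratios was not used. It names some H4 deletions that the barcode table does not pair with a barcode.

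Up and down counts were joined to strains through the deposited barcode table and summed. Strains averaging under 10 counts a library were left out. Shares are of all counts of a library, barcodes without a strain name included. Day 44 ratios are log2 ratios less the median over kept strains (-0.26), with 0.5 in place of a count of 0, and their 95% intervals come from the exact Clopper-Pearson interval of the later count within the sum of both. PCR reads are no independent molecules, so these intervals cover counting error and nothing else.

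Slopes, the fraction term and the interaction were fitted with edgeR 4.0.16 (R 4.3.3), by its quasi-likelihood test after TMM scaling, with Benjamini-Hochberg adjustment over the 347 strains and a threshold of 0.05,, with 8, 3, 8, 3, 9 and 8 residual degrees of freedom for quiescent course, quiescent days 7 to 44, the same 2 of the non-quiescent fraction, fraction and interaction. The p-values rest on the scatter of serial libraries of 1 culture and do not cover differences between cultures. DESeq2 1.42.0 was an alternative, as were library totals, the wild type as the reference, no filter, each barcode alone and leaving out each day. Of 60 strains changed by 2 log2 units in simulated counts of 347 strains, 57 were recovered for the quiescent course and 39 for quiescent days 7 to 44. For the interaction 36 were recovered. The simulated libraries were independent, with the same dispersion for all strains and no change in the others, so recovery in serial libraries of 1 culture may differ. Pairs were tested with 100000 permutations (exact where fewer days allow), with scipy 1.17.1 in Python 3.11.15.

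All deletions are named, with the wild type, the highest and lowest single substitution at H4 residues 1 to 24 and the alanine substitutions at residues 16 to 20. The members and lists were chosen with earlier results of these data known.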

Additional observations from a re-analysis of the deposited data

Results flagged for a closer look

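In 7 deletions the trend differed between the fractions by the test of the interaction itself, given here as the difference in log2 slope per unit of log2(day + 1), quiescent less non-quiescent. It was -0.67 in H4[del 1-4], 0.51 in H4[del 1-12], 0.21 in H4[del 5-8], 0.52 in H4[del 5-12], 0.43 in H4[del 9-16], 0.22 in H4[del 13-16] and 0.27 in H4[del 21-24]. Of these, 6 moved toward the quiescent fraction, against 15.3% of the 347 strains, and 1 away from it, against 17.6%. Without certain single late days, named above, only H4[del 1-12] and H4[del 5-12] still passed. Under library totals H4[del 5-8], H4[del 13-16] and H4[del 21-24] did not pass. The fits include days for which an exchange of the fractions was not tested. H4[del 1-8] lies outside the comparisons, with 60 counts in all, every one of them in the libraries of day 0.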

How the results depend on the processing

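Of 335 refits of the 23 slopes and interactions called for single deletions, 274 kept direction and threshold and 61 kept the direction alone. The number of deletions called in the quiescent course was 7 to 9 when 1 day was left out. For quiescent days 7 to 44 it was 2 to 8, and 5 with the wild type as the reference. In the non-quiescent course it was 0 to 3, and 1 by DESeq2 and by the up barcode alone. In non-quiescent days 7 to 44 it was 0 whichever day was left out, and 1 by the up barcode alone. For the fraction it was 0 to 3, with 3 by DESeq2, 10 over days 14 to 44 and 1 over days 1 to 3. With no replicate block (day left out of the model) it was 0. For the interaction it was 2 to 9, and 4 under library totals. The pairs that differed numbered 1 to 6, with 1 by the down barcode, 0 in the non-quiescent libraries and 0 over days 7 to 44, where 5 days allow an exact p of 0.00833 at best. Over all strains, library totals turned the quiescent course from 75 rising and 94 falling to 46 and 109. For most other refits the share of all strains called is not given here. The median day 44 ratio of the deletions was 0.12, and it became -0.038 by the down barcode, -0.13 at day 34, -0.29 relative to the wild type, -1.44 in non-quiescent cells, 0.53 from day 7 and 0.94 from day 1. The cause was not tested. Thin counts limit 1-4 after day 14 and 13-20 throughout.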

Other observations

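One further strain bears on the acetylated lysines and was chosen after its values were seen. H4K5,8,12,16Q, with glutamine at all 4, stood at -3.52 at day 1 and at -0.68 at day 44 (-0.90 to -0.47) in the quiescent fraction, and its change from day 1 to day 44 was 2.87. This strain had no day 44 ratio by a down barcode, and its up barcode alone gave -0.71. The deletion 5-12, which removes 3 of these lysines, stood at -1.39, 1.17 and 2.60 in the same order. Its counts sum both barcodes, so these strains were not measured alike.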
